A study of Rattus norvegicus with 8 samples.

Results

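The genes described here are 10 markers of the fat cells that lie around an artery: Adipoq, Plin1, Lep, Fabp4, Pparg, Lipe, Cfd, Retn, Ucp1 and Cidea. They were taken by their symbols from a count table of 37209 genes, and all 10 were found in it. The libraries were made from mRNA of carotid arteries of male Sprague-Dawley rats weighing 400 g on average. In the injury group (4 arteries), the left carotid artery had been stretched with a balloon catheter to damage its inner lining and was collected 2 weeks later. The control group (4 arteries) was the untouched right carotid artery, so each control came from an operated animal. Neither the labels nor the methods say whether the outer fat was trimmed, how much of it went into each library, or which left and right arteries shared a rat. The library totals ran from 13470754 to 15276952 counts in the controls and from 11459632 to 16658089 in the injured arteries.

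Fat around an artery is called perivascular adipose tissue. White adipocytes store triglyceride in a single large droplet coated by perilipin and release hormones (adipokines) such as adiponectin and leptin, whereas brown adipocytes hold many small droplets and burn fatty acids for heat through the mitochondrial uncoupling protein Ucp1. Perivascular fat can hold both kinds, and its products reach the vessel wall from outside. In RNA of a whole artery, fewer fat cells and less adipocyte RNA per cell cannot be told apart.

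3 of the genes are shown with the 250 bases before their transcription start: Adipoq, the most widely used adipocyte marker, Lep, and the brown fat gene Ucp1. The sequences come from RefSeq (build GRCr8), which held windows for 8 of the 10 genes. Adipoq lies on the minus strand (chr11:91240170-91240419), Lep on the plus strand (chr4:58626288-58626537) and Ucp1 on the minus strand (chr19:41721422-41721671), and each window reads 5′ to 3′ along its gene. Capitals mark the motifs found: CCAAT (or ATTGG on the other strand) in Adipoq and Lep, the palindrome TTGCGCAA, a binding sequence of the C/EBP factors, in Lep, and TATAAA, the TATA box, in Ucp1.
Adipoq: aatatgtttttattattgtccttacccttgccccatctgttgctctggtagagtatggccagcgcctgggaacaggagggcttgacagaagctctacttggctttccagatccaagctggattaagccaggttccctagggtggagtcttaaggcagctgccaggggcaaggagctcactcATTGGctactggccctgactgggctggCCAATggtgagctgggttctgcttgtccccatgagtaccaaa
Lep: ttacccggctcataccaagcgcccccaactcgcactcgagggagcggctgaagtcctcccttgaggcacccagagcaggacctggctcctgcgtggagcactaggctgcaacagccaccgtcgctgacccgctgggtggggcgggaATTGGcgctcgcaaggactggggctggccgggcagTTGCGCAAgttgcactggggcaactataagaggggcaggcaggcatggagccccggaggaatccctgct
Ucp1: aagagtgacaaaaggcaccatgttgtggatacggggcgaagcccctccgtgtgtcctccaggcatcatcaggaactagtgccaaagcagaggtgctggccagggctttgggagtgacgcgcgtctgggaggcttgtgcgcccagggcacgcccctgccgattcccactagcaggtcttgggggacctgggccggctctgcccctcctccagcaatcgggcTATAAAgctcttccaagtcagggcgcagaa
On both strands, TTGCGCAA was present in 47 of 33469 rat promoter windows of this length (0.14%), TATAAA in 12.9% and CCAAT in 34.0%. The TATAAA of Ucp1 began 30 bases before the start, and the TTGCGCAA of Lep 69 bases before it. None of the motifs overlapped another in these 3 windows. AGGTCA, the core letters of nuclear receptor sites, was present in 14.1% of windows. Among the 8 genes with a window, it was found in that of Retn. Fabp4 and Lipe had no window and were not searched. These matches are letters in a window and were not measured for binding.

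Adipocyte RNA was detected in every library. For Adipoq and Plin1, the fold between the highest and lowest artery of a group was larger than the fold between the group means. Levels are given as CPM (a gene's counts scaled to a common library size with TMM factors) and are compared between arteries, not between genes. Adipoq, which encodes adiponectin, stood at 11.1, 95.3, 41.9 and 76.9 CPM in control arteries 1 to 4 and at 26.3, 3.77, 49.9 and 25.2 CPM in injured arteries 1 to 4. The means were 56.3 ± 37.4 CPM in the controls and 26.3 ± 18.8 CPM after injury (SD, n = 4 each). Control 1 lay below 3 of the 4 injured arteries, so the groups overlapped. Plin1, the perilipin that coats the lipid droplet and guards it from lipases, ranked the controls in the same order, with 8.92, 135, 40.6 and 88.9 CPM in the controls and 22.3, 4.78, 47.3 and 25.2 CPM after injury. Within the controls alone its highest value was 15.1 times its lowest, and within the injured arteries 9.90 times.

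Lipe encodes hormone-sensitive lipase, Fabp4 the fatty acid carrier of adipocytes, and Pparg the nuclear receptor that drives fat cell formation. Lipe was measured at 19.1, 139, 62.2 and 109 CPM in the controls and at 56.8, 42.4, 83.0 and 82.1 CPM in the injured arteries. Fabp4 gave 54.0, 377, 148 and 396 CPM against 152, 108, 183 and 191 CPM, and Pparg gave 2.95, 14.7, 6.51 and 11.5 CPM against 8.96, 4.63, 6.75 and 6.78 CPM. In all 3 genes the injured arteries lay inside the span of the controls. The injured arteries were also closer together: the SD of Fabp4 was 169 CPM in the controls and 37.8 CPM after injury. Fabp4 and Pparg are also present in capillary endothelium and macrophages, so they are less specific to fat cells than Adipoq and Plin1.

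Among the hormones, Lep (leptin, the satiety signal of white fat) was low, with 0.79, 21.6, 5.33 and 7.86 CPM in the controls and 1.49, 0, 6.53 and 0.82 CPM after injury. Injured artery 2 held no Lep read, and a count of 0 there allows up to 0.224 CPM (3 counts, counting error only). Retn, which encodes the adipokine resistin, stood at 1.66, 17.3, 9.42 and 18.0 CPM against 5.19, 0.80, 6.75 and 7.84 CPM. The groups overlapped in both genes. In Retn, only control 1 lay below the highest injured artery. In Lep, control 1 and control 3 (5.33 CPM) both lay below injured artery 3 (6.53 CPM). Cfd, adipsin or complement factor D, is the serine protease that cleaves factor B in the alternative complement pathway. Cfd was the only one of the 10 with a higher mean after injury: 19.8, 54.8, 45.0 and 56.6 CPM in the controls and 98.6, 32.2, 57.4 and 88.5 CPM in the injured arteries. 3 of the 4 injured arteries were above the highest control, and injured artery 2 was below 3 of the controls.

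Ucp1 and Cidea are the genes of the 10 tied to brown fat. Ucp1 was at 0, 85.5, 8.79 and 133 CPM in the controls, and at 0, 0, 2.68 and 0 CPM after injury. In counts, these were 1044, 127 and 1945 reads in controls 2, 3 and 4 and 48 reads in injured artery 3, with no read in control 1 or the other 3 injured arteries. The gene was therefore present in 3 of 4 controls and 1 of 4 injured arteries, and the groups overlapped because control 1 also held none. The floor of 3 counts lay between 0.18 and 0.262 CPM across libraries. Cidea, a lipid droplet protein that helps droplets fuse and is abundant in brown fat, gave 30.2, 68.9, 28.2 and 56.7 CPM in the controls and 27.7, 13.5, 16.4 and 9.48 CPM in the injured arteries. Its groups did not overlap, with the lowest control (control 3) just above the highest injured artery (artery 1), and its means were 46.0 ± 20.1 and 16.8 ± 7.83 CPM.

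**Figure D1:**
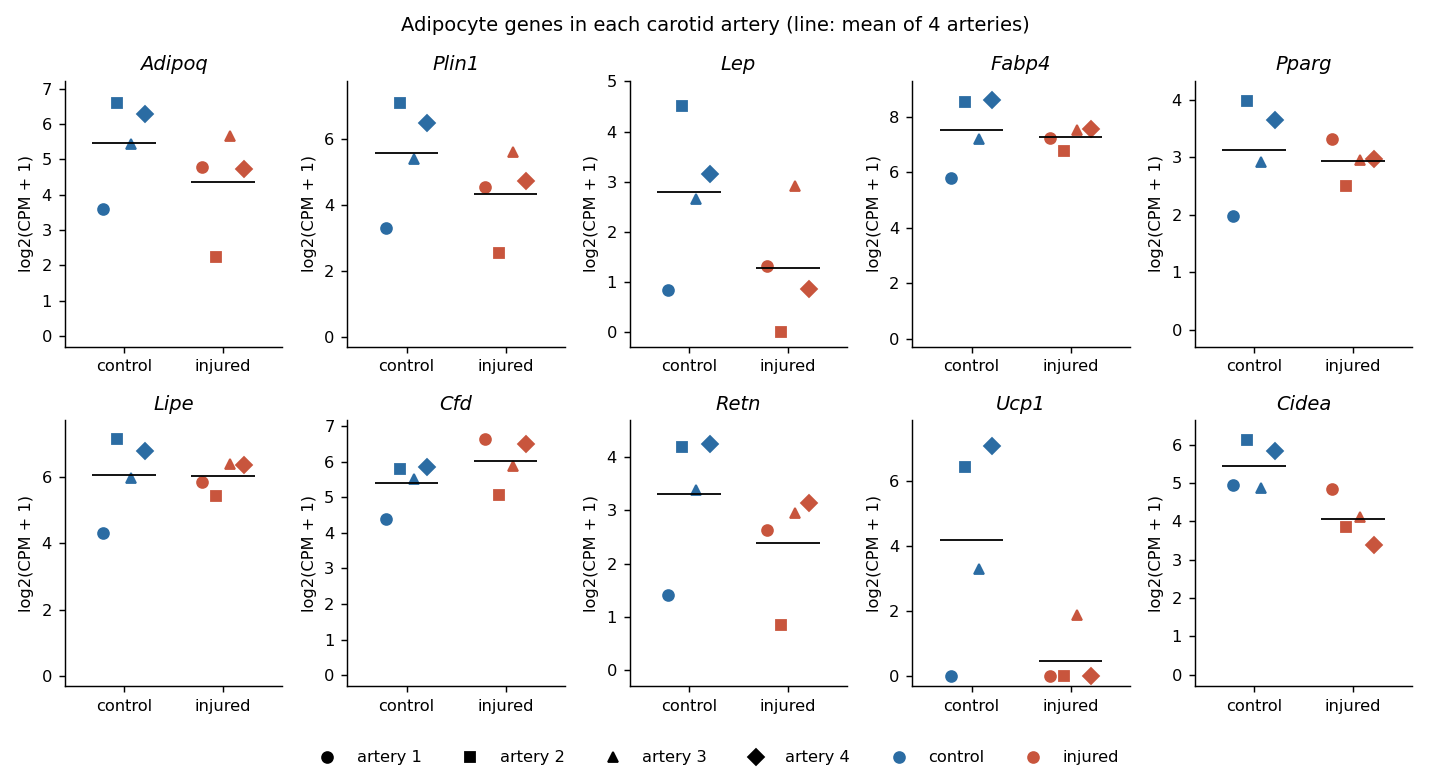
Level of each of the 10 adipocyte genes in each artery, as log2(CPM + 1) on the vertical axis, with controls in blue, injured arteries in red, a symbol for each artery number and a line at the mean of 4 arteries. Control 1 (blue circle) is the lowest control in every gene but Cidea, and Cidea is the only gene whose groups do not overlap. The share of all genes tested whose groups do not overlap was not counted, so this has no background beside it.

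In the fit across all genes, 1 of the 10 separated the groups. A gene was called changed when the false discovery rate (FDR) of edgeR's quasi-likelihood test was under 0.05 and the fold above 2. All 10 genes passed the filter on low counts, and 1 of them, Cidea, was called, lower after injury. By the same rule 1562 of 14359 genes (10.9%) were called, 1193 (8.31%) higher and 369 (2.57%) lower. DESeq2, run as an alternative with the same thresholds, also called Cidea alone among the 10, and 12.9% of the genes it tested. A share of 1 in 10 is close to the background of 10.9% for both directions together. A single lower call is too few to set against the 2.57% called lower. Of the 10 log2 fold changes, 9 were below 0, with a median of -1.14 against -0.057 over all genes tested. The share of all genes tested below 0 was not counted, for these or for the lists below. The 10 signs are not independent, since Plin1, Retn and Lep followed Adipoq across libraries (Pearson correlation 0.986, 0.964 and 0.922).

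Cidea was lower after injury by a log2 fold change of -1.46 ± 0.41 (SE; edgeR FDR 0.0447), and in the exact two-sided permutation test of log2(CPM + 1) it gave p = 0.0286, the smallest value that 4 against 4 arteries allow. The call lay close to the threshold. It was lost, with the direction kept, when control 1, control 2 or injured artery 2, 3 or 4 was left out, the edgeR FDR ranging from 0.0289 to 0.127 over all 8 such fits. It was also lost with library totals in place of TMM factors (edgeR FDR 0.069, exact permutation p = 0.0857) and with no filter on low counts (edgeR FDR 0.0562). Ucp1 had the largest estimate of the 10, a log2 fold change of -6.31 ± 2.15 (SE), but its edgeR FDR was 0.0826 and its exact permutation p was 0.143. Without control 4, which held the most Ucp1 reads, the estimate was -5.41 with an edgeR FDR of 0.0647.

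None of the other 8 genes passed. On the log2 scale, the fold changes were -1.99 ± 1.26 for Lep, -1.46 ± 0.85 for Plin1, -1.18 ± 0.80 for Retn, -1.10 ± 0.79 for Adipoq, -0.63 ± 0.56 for Fabp4, -0.40 ± 0.46 for Pparg and -0.32 ± 0.53 for Lipe, with 0.65 ± 0.42 for Cfd (SE, n = 4 each). Their edgeR FDR values ran from 0.287 for Plin1 to 0.719 for Lipe, and their exact permutation p-values from 0.229 to 0.971. The SE of Adipoq, Plin1, Retn and Lep lay between 0.79 and 1.26, so differences of the size estimated could not be told from the spread between arteries. Single arteries moved these estimates. Lep ranged from -3.50 without injured artery 3 to -1.07 without control 2, Plin1 from -1.98 without injured artery 3 to -0.91 without control 2, and Adipoq from -1.62 without injured artery 3 to -0.73 without control 2. Leaving out control 2 turned the estimate of Lipe to 0.043. None of these 8 genes was called in any of the 8 fits.

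**Figure D2:**
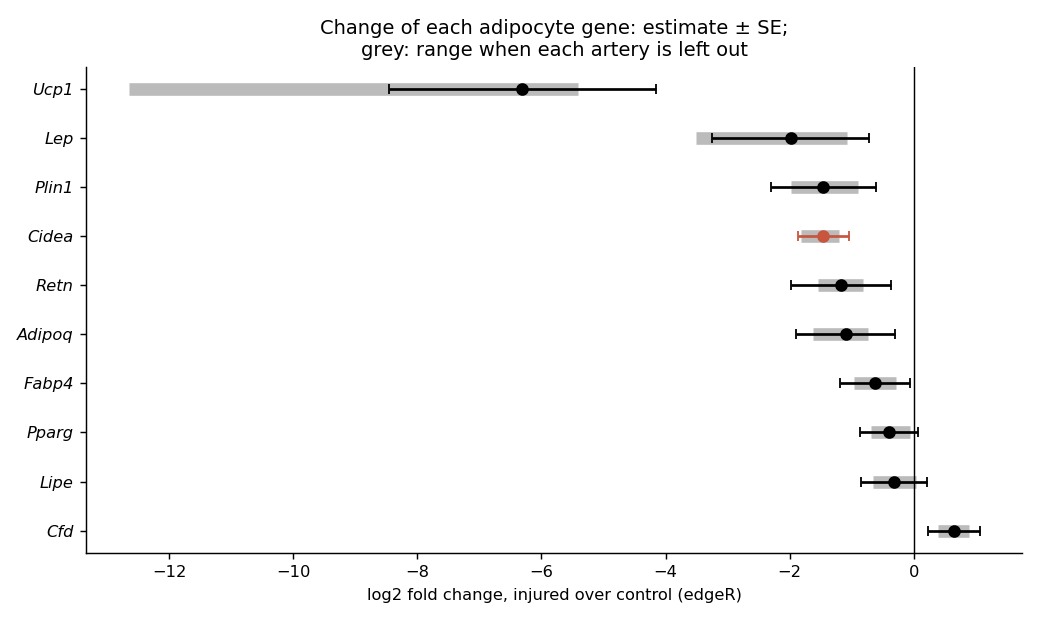
Log2 fold change of each gene, injured over control, from edgeR (point, with bars of ± SE; Cidea, the called gene, in red), with the range of estimates when each artery is left out in grey. 9 estimates lie below 0, and the grey range of Ucp1 reaches -12.65 in the fit without injured artery 3, which leaves no injured artery with a Ucp1 read and depends on the prior count.

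The same arteries stood at the low end in most of the genes. Control 1 was the lowest control in 9 of the 10 genes, and either control 2 (6 genes) or control 4 (4 genes) was the highest. Among the injured arteries, artery 2 was the lowest on its own in 8 genes and tied at 0 with arteries 1 and 4 in Ucp1. The highest injured artery changed from gene to gene: artery 3 in 5 genes, artery 1 in 3 and artery 4 in 2. Together the 10 genes took 0.0135% of all counts in control 1 and 0.0914%, 0.0376% and 0.0956% in controls 2, 3 and 4. In injured arteries 1 to 4 they took 0.0431%, 0.0217%, 0.0495% and 0.0467%, inside the span of the controls. The median SD of log2(CPM + 1) over the 10 genes was 1.34 in the controls and 0.83 after injury, while over all 14359 genes tested it was 0.31 and 0.22.

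Which genes moved together across the 8 libraries was described by the Pearson correlation of log2 CPM with Adipoq, with no test, since the points share libraries and depth. Plin1 was the closest of all genes tested (r = 0.986), Retn ranked 5 (0.964) and Lep 18 (0.922). Pparg, Fabp4, Ucp1 and Lipe lay between 0.789 and 0.807, Cidea at 0.609 and Cfd at 0.488. The 10 closest genes outside the list were Car3 (0.969), Mlxipl (0.967), Cidec (0.964), Pex11a (0.961), Wwp1 (0.960), Acvr1c (0.949), Mst1 (0.944), Agt (0.940), Thrsp (0.940) and Gpd1 (0.937). Several are known from lipid storage: Mlxipl is the carbohydrate-sensing transcription factor ChREBP, Cidec a droplet fusion protein related to Cidea, Thrsp a lipogenic nuclear protein and Gpd1 the enzyme that makes glycerol 3-phosphate for triglyceride. None of these 10 was called by edgeR between the groups, and DESeq2 called Cidec and Gpd1.

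Since the amount of Adipoq RNA varied so widely, each gene was also divided by Adipoq within its library (counts with 0.5 added to both), a measure added after the values had been seen. Plin1 kept a nearly fixed ratio, from 0.806 to 1.42 in the controls and from 0.846 to 1.27 in the injured arteries, and Retn ranged from 0.152 to 0.235 and from 0.136 to 0.312. Lipe was 1.72, 1.46, 1.48 and 1.42 times Adipoq in the controls and 2.16, 11.2, 1.66 and 3.25 times Adipoq after injury. Only the value of injured artery 3 fell below the highest control. Cfd was 1.78, 0.575, 1.07 and 0.736 times Adipoq in the controls and 3.74, 8.49, 1.15 and 3.50 times Adipoq in the injured arteries. Lipe and Cfd each gave an exact two-sided permutation p of 0.0571, before any adjustment for the 9 ratios computed, and neither passed 0.05. The ratios of Lipe, Cfd, Fabp4 (28.4) and Pparg (1.23) were all highest in injured artery 2, which had only 52 Adipoq reads.

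Ucp1 was 0.898, 0.211 and 1.73 times Adipoq in controls 2, 3 and 4 and 0.0542 times Adipoq in injured artery 3. Injured artery 3 therefore held less Ucp1 per Adipoq read than any control with Ucp1 reads, although its Adipoq level (49.9 CPM) was above that of control 3 (41.9 CPM). Control 1 had 154 Adipoq reads and no Ucp1 read, and injured arteries 1 and 4 had 441 and 309 Adipoq reads and no Ucp1 read. The exact permutation p for this ratio was 0.0857. Cidea did not keep a fixed ratio: it was 2.72 times Adipoq in control 1 and 0.723, 0.675 and 0.738 times in the other 3 controls, and 1.05, 3.55, 0.329 and 0.376 times in the injured arteries (exact permutation p = 0.714). In control 1 and injured artery 2, the libraries with the least Adipoq, Cidea was thus the highest relative to it, and the difference seen in Cidea CPM did not hold for this ratio.

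**Figure D3:**
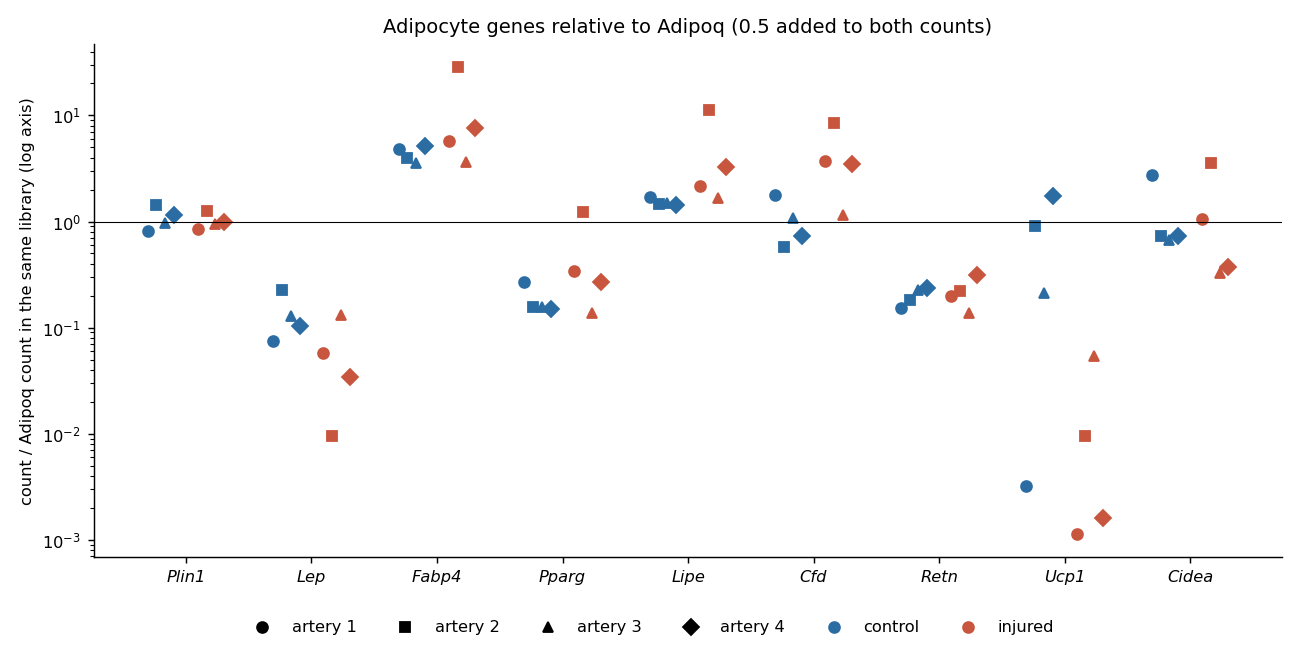
Count of each gene divided by the Adipoq count of the same library, with 0.5 added to both, on a log axis, for controls (blue) and injured arteries (red), with a symbol for each artery number. Plin1 and Retn stay within narrow bands, and the groups overlap in all 9 ratios. Fabp4, Lipe, Cfd, Cidea and Pparg reach their highest ratios (28.4, 11.2, 8.49, 3.55 and 1.23) in injured artery 2, which had 52 Adipoq reads.

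Around these genes, 6 lists of other genes of the adipocyte program were examined, of which 53 of 63 matched genes could be tested. By edgeR, 1 of these was called higher and 7 lower, with a median log2 fold change of -0.73 and 40 of 53 below 0. Beside the background of 8.31% higher and 2.57% lower calls, these are given as counts only. The number of calls depended on the test and on single arteries: DESeq2 called 19 program genes, 1 higher and 18 lower, among them all 8 of edgeR, and edgeR called 5 without injured artery 2 and 4 without injured artery 4. The calls named below by list are those of edgeR unless DESeq2 is named. In the lipid droplet and lipolysis list, 2 of 10 were called, both lower: Plin4, a droplet coat protein, and Pnpla2, adipose triglyceride lipase. Plin4 stood at 239, 217, 246 and 121 CPM in the controls and at 90.9, 65.1, 67.6 and 78.7 CPM after injury (log2 fold change -1.45, edgeR FDR 0.00486), and Pnpla2 changed by -1.43 (edgeR FDR 0.0118). Cidec had the largest estimate not called by edgeR, -1.99 (edgeR FDR 0.16), and DESeq2 called it (FDR 0.0329). DESeq2 called 5 genes of this list in all, each of them lower.

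All 13 tested genes of fatty acid and triglyceride synthesis had estimates below 0 (median -1.33), and 1 was called: Acsl1, which attaches coenzyme A to fatty acids, at -1.56 (edgeR FDR 0.0426). Pck1, which feeds glycerol synthesis in fat, had a larger estimate of -2.91 but an edgeR FDR of 0.0884, and DESeq2 called it (FDR 0.0207) among 6 genes of the list, all lower. Of 7 genes of fatty acid and glucose uptake, Slc2a4, the insulin-responsive glucose transporter GLUT4, was called lower (-1.63, edgeR FDR 0.0157), and the median of the list was 0.08. Gpihbp1, the capillary anchor of lipoprotein lipase, was at 1.07 and not called. Among 8 transcription factors of fat cell formation, Cebpd, an early inducer, was called higher (1.13, edgeR FDR 0.00524) and Klf15 lower (-1.25, edgeR FDR 0.00433), while Cebpa was at 0.78 and not called.

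In the brown and beige list, 2 of 10 tested genes were called, both lower. Kcnk3, a potassium channel, stood at 87.2, 55.6, 49.5 and 32.1 CPM in the controls and 29.2, 8.11, 10.8 and 13.0 CPM in the injured arteries (log2 fold change -1.88, edgeR FDR 0.0259). Ppara, the fatty acid oxidation receptor, gave 13.7, 40.6, 15.2 and 25.4 CPM against 6.81, 4.34, 9.37 and 4.90 CPM (-1.90, edgeR FDR 0.0167). Cox8b, a respiratory chain subunit of brown fat and muscle, had the largest estimate of the list, -3.00, and was not called by edgeR or DESeq2. DESeq2 called 5 genes of this list, all lower. None of 5 other adipokines was called by edgeR or by DESeq2, and the largest estimate was that of Agt, angiotensinogen, at -1.13. By edgeR, 1 of the 5 had an unadjusted p under 0.05, against 31.1% of all genes tested.

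The called genes did not all follow Adipoq across arteries. Control 1, the lowest control in Adipoq, was the highest of all 8 libraries in Slc2a4 (108 CPM) and Kcnk3 (87.2 CPM) and gave 239 CPM of Plin4. Slc2a4, Plin4 and Kcnk3 are also expressed in muscle cells. The summed level of 8 smooth muscle markers was highest in control 1 as well (51352 CPM), with 44095, 37936 and 17394 CPM in controls 2 to 4 and 10534 to 16735 CPM after injury, and 6 of the 8 were called lower. The part of the muscle RNA in these calls was not tested.

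**Figure D4:**
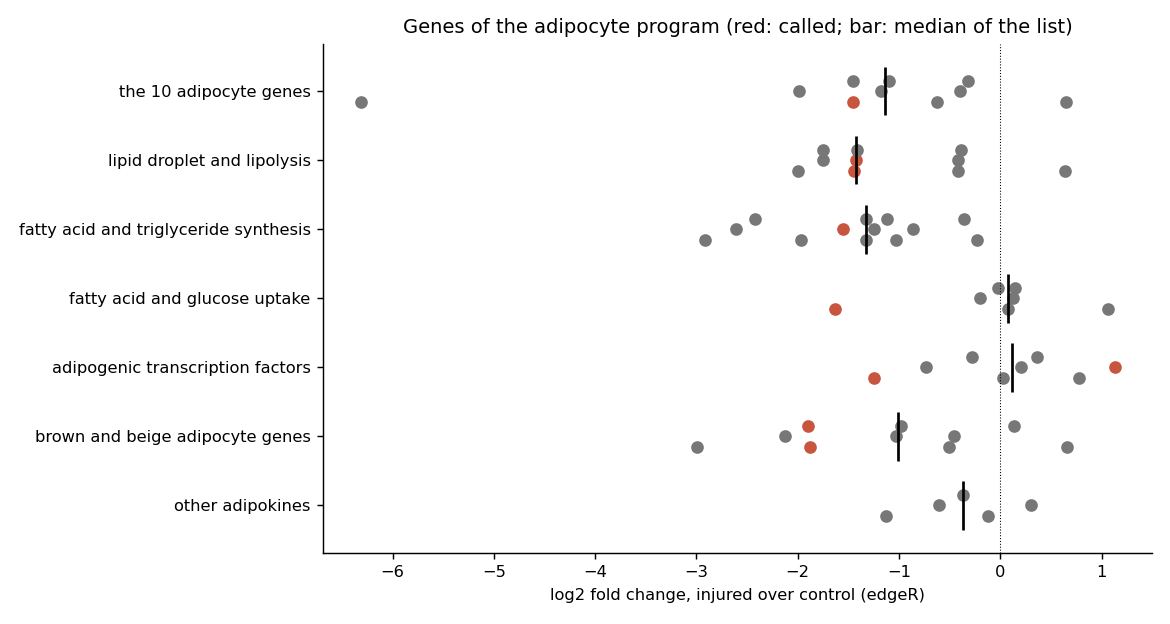
Log2 fold change, injured over control, from edgeR for each tested gene of the 10 adipocyte genes and the 6 program lists, with called genes in red and the median of each list as a bar. Medians run from -1.42 for lipid droplet and lipolysis to 0.11 for the transcription factors.

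The receptors for adiponectin and leptin were measured in the same arteries. EdgeR called none of the 4 genes, and DESeq2 called Lepr. By edgeR, 1 of the 4 had an unadjusted p under 0.05, against 31.1% of all genes tested. Adipor1 and Adipor2, the signalling receptors of adiponectin, changed by -0.023 and -0.16 on the log2 scale, and Cdh13 (T-cadherin, which binds adiponectin on vascular cells) by 0.31. Lepr, the leptin receptor, had the largest estimate, -1.06, with an edgeR FDR of 0.0672 and a DESeq2 FDR of 0.0132. It stood at 11.4 to 17.6 CPM in the controls and 2.82 to 8.36 CPM after injury. These groups did not overlap, but the share of all genes tested without overlap was not counted. Of the complement genes that act with Cfd, C3, the central component, was called higher. Its mean was 2.40 ± 2.42 CPM in the controls and 41.2 ± 18.1 CPM after injury, a log2 fold change of 4.08 (edgeR FDR 0.0106). Cfb, the substrate of Cfd, was at -0.35 and was not called.

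Markers of other tissues also differed between these arteries, and their part in the adipocyte values was not tested. 9 of 10 macrophage markers were called higher, with a summed level of 185 to 286 CPM in the controls and 1737 to 2614 CPM after injury. 8 of 10 skeletal muscle markers were called higher (85.5 to 261 CPM against 341 to 1256 CPM). Of 8 endothelial markers 2 were called higher and 1 lower, and of 8 genes of adventitial fibroblasts and fat progenitors 3 were called higher and 1 lower. The Schwann cell list had no call in 5 genes, and the thyroid and parathyroid list had 1 call, lower, in its 1 tested gene, with a sum of at most 7.62 CPM. No B cell marker passed the filter of edgeR (DESeq2, with its own filter, called 2 higher), with a summed level between 0 and 2.45 CPM. Control 4 stood apart with 8026 CPM of 5 sympathetic neuron markers, against 13.2 to 20.4 CPM in the other controls, and injured artery 3 held 1298 CPM against 13.2 to 111 CPM in the other injured arteries. The extraction text of the labels names a brain region, whereas the sums of smooth muscle markers above are those of an artery wall. Of 606 protein-coding genes that RefSeq places on the X chromosome, 592 (97.7%) were at 0 in all 8 libraries against 9.62% of autosomal genes. No adipocyte gene of the 10 lies there, but Apln, Gk and Cfp of the lists do, and their zeros were not read as absence.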

How the data were processed

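RNA of 4 injured and 4 control carotid arteries was sequenced, and the authors deposited 1 table of raw read counts per gene. The submitters' processing notes name HISAT2 (2.0.4); the annotation, genome build, strand setting and counting tool are not given in the sources used here. Groups were taken from the labels. All genes were fitted in edgeR (4.0.16) with filterByExpr, TMM factors and the quasi-likelihood test, group as the only term, Benjamini-Hochberg adjustment over 14359 genes, and calls at an FDR under 0.05 and a fold above 2, the thresholds of the study. DESeq2 (1.42.0), RLE factors, library totals alone, other filters, FDR alone, pseudocounts of 0.5 and 2, a replicate block and leaving out each artery were alternatives. Single genes were also tested by an exact two-sided permutation test over 70 relabellings of log2(TMM CPM + 1).

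The 10 genes and all lists were chosen with earlier results of these data known. Named genes were the 10, the called genes of each program, receptor or partner list (at most 4) with its largest estimate not called, and the 10 genes most correlated with Adipoq. Cfb, single genes of other tissues at 0, and the genes singled out for not following Adipoq were named after their values were seen. Of 153 list genes, 150 matched by symbol and 1 by synonym. Nothing says that replicates pair by number. The control arteries are those of operated rats, so the groups share animals although the fit treats the arteries as separate. On simulated counts with 200 genes changed 4-fold, the edgeR test recovered 77.0% of them. The 10 adipocyte genes varied more between arteries than most genes. Their median SD of log2(CPM + 1) was 1.34 in the controls and 0.83 after injury, against 0.31 and 0.22 over all genes tested. Recovery at the spread of the 10 was not tested. Counting precision is limited by totals of 11459632 to 16658089 per library.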

Additional observations from a re-analysis of the deposited data

Results flagged for a closer look

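Ucp1 in injured artery 3 stood apart from the other 3 injured arteries, with 2.68 CPM (48 counts) against 0 CPM. Its gap to the nearest of them took up the whole range of the group (a ratio of 1.0, above Dixon's critical value for 4 samples). With the other 3 all at 0, any read in artery 3 gives a ratio of 1.0, so the zeros fixed this mark. Of 20 groups examined, 2 for each of the 10 genes, this 1 was marked. The usual rate by chance of about 1 in 20 does not hold for tied zeros.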

How the results depend on the processing

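The call of Cidea, the only 1 of the 10 genes called, was lost (0 of 10 called) with library totals alone, with no filter on low counts and with the replicate block, and leaving out each artery gave 0 to 1. With the replicate block, its log2 fold change was -1.46 (edgeR FDR 0.138). Same-numbered arteries correlated at 0.406, 0.515, -0.612 and -0.464 in their deviations from the group means, and an artery correlated best with its own number only for numbers 1 and 2. The block gave 1187 calls against 1562. The count of genes called was 1007 with at least 10 counts in every library, 2468 with the FDR alone and 1142 to 2398 when each artery was left out. The 8 program genes called became 19 with DESeq2 and 4 to 12 with an artery left out, 4 without injured artery 4 and 5 without injured artery 2. Leaving out each artery put Lipe between -0.66 and 0.043, the latter without control 2, and its difference of log2(CPM + 1) was 0.13 with library totals alone. Divided by Adipoq, Fabp4 (0.92), Pparg (0.99), Lipe (1.16) and Retn (0.082) turned positive on the log2 scale. Of 177 other values, 161 kept their direction and side of the threshold, 10 fell short of it and 6 turned. All 10 that fell short were values of Cidea, and most of the 161 belong to genes that were never called. The tally therefore does not show the call of Cidea to be stable. The cause was not tested. With 4 arteries a group, changes of the size seen in Adipoq were not separable from the spread, and the lowest counts limit Lep, Retn and Ucp1.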
